A study of Homo sapiens with 6 samples.

Results

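The T-box genes examined here are 10 members of the family of transcription factors that share the T-box DNA-binding domain, namely TBX1, TBX2, TBX4, TBX5, TBX15, TBX18, TBX20, TBR1, EOMES and TBXT, which older annotation writes as T. They were listed by name from the 19819 protein-coding genes with a canonical start on chromosomes 1 to 22 and X. The list was chosen with earlier results of these data known, so its shares beside those of other genes are a description. For each gene 3 features were read, namely the promoter (1000 bp upstream to 500 bp downstream of the canonical start), the rest of the gene from 500 bp downstream onward (the body), and tiles of 500 bp from 10 kb upstream of the gene to its end. CpG methylation was measured by whole genome bisulfite sequencing in 3 Conventional and 3 Reset libraries of H9, a human embryonic stem cell line in wide use. Conventional cells grew in FGF/KSR medium with 10 ng/ml bFGF and 20% KSR, a serum replacement. Reset cells had been transfected with NANOG and KLF2 transgenes that were induced with 1 μM doxycycline, and were then held without it in t2iL+Gö, which combines 1 μM CHIR99021 (a GSK3 inhibitor), 1 μM PD0325901 (a MEK inhibitor), LIF and 5 μM of the protein kinase C inhibitor Gö6983. Both groups were kept on mouse embryonic fibroblast feeders at 5% oxygen. The transgenes, the medium and the route of passage therefore differ together between the groups and cannot be told apart. Separate resettings are not named in the labels of the Reset libraries, so p-values measure the spread between these libraries.

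T-box factors bind short DNA elements and switch on or hold back the programmes of mesoderm, heart, limb, craniofacial, skeletal and brain development. In pluripotent cells most of them are silent or poised, and their starts lie in CpG-rich DNA that is commonly marked by Polycomb complexes and free of DNA methylation over a long stretch, a so-called methylation valley. DNA methylation on such a start is a stable form of silencing in many somatic and cancer cells, whereas methylation within a gene body is common in expressed genes.

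The level of a feature is the percentage of methylated calls among all calls on its CpGs. It is an average over a population of cells, so that methylation of some cells and partial methylation of every cell cannot be told apart. Conventional libraries held 92023996 to 98004161 calls (3.28 to 3.49 per CpG) and Reset libraries 70329213 to 80199615 (2.51 to 2.86 per CpG). The level over all calls lay between 84.3 and 84.6% in Conventional libraries and between 29.5 and 30.3% in Reset. Expression was not part of these files, so the identity of the cells was not checked against marker genes. Coverage within 250 kb of each member was divided by the mean of its library, and Reset over Conventional gave ratios from 0.918 at TBX15 to 1.14 at TBX1.

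Against this loss over the genome, the 10 members held DNA that rose. For the 4 members with the largest rise in a tile, the central 300 bases of that tile are shown, read from the GRCh37 sequence 5′ to 3′ on the strand of the gene, to show the kind of DNA in which the gain lay. Capitals mark each CpG. The TBX4 stretch (chr17:59528883-59529182, plus strand) lies upstream of the gene, the TBX15 stretch (chr1:119531567-119531866, minus strand) in an intron of a longer transcript upstream of the canonical start, and the TBX20 (chr7:35298312-35298611, minus strand) and TBX18 (chr6:85476917-85477216, minus strand) stretches upstream of their genes.
TBX4: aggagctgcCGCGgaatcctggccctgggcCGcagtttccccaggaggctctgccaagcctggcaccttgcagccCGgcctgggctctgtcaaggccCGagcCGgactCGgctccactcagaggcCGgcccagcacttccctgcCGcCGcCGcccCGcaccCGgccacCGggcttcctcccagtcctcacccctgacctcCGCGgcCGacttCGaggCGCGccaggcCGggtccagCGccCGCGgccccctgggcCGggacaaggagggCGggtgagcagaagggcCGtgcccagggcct
TBX15: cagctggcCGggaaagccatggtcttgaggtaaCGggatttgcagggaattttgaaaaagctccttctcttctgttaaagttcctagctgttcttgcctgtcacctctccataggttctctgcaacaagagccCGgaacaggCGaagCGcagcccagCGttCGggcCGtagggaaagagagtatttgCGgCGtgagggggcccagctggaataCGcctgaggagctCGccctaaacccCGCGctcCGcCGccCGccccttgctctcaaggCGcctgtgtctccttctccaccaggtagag
TBX20: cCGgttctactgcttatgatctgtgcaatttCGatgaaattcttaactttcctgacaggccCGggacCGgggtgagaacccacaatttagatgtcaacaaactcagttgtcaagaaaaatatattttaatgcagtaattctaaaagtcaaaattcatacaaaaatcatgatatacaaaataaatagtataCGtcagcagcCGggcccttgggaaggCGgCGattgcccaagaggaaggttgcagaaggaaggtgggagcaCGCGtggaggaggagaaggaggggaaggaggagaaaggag
TBX18: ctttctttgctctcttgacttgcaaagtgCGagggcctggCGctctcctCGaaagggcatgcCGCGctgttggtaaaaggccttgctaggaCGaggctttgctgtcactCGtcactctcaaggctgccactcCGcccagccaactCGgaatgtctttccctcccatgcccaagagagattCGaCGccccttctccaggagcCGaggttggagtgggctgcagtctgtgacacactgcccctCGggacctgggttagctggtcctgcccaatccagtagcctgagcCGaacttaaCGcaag

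The TBX4 stretch holds 27 CpGs and rose from 3.74% ± 1.87 in Conventional to 74.4% ± 11.4 in Reset (SD, n = 3 each). The 18 CpGs of the TBX15 stretch were at 0.56% ± 0.98 and 72.6% ± 16.9 (SD, n = 3). The GC content of the stretches runs from 75.3% at TBX4 to 44.7% at TBX20. TBX20 was at 0.54% ± 0.93 and 66.3% ± 13.4 over 10 CpGs, and TBX18 at 1.15% ± 1.99 and 54.2% ± 10.1 over 15 CpGs (SD, n = 3 each). These stretches were picked for their rise, so their values are a description.

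Of the 10 promoters, 7 rose in Reset cells, 0 fell and 3 did not pass the test (quasi-binomial model, adjusted p under 0.05). Over all 19300 tested promoters, 3.98% rose and 67.4% fell. All 10 members lay under 20% in Conventional cells, and of the 11059 promoters with such a low level 6.55% rose and 5201 fell. The median change was 12.7 percentage points over the members, -9.59 over all tested promoters and -2.57 over those under 20% in Conventional cells. The members' promoters hold 41 to 174 CpGs.

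**Figure D1:**
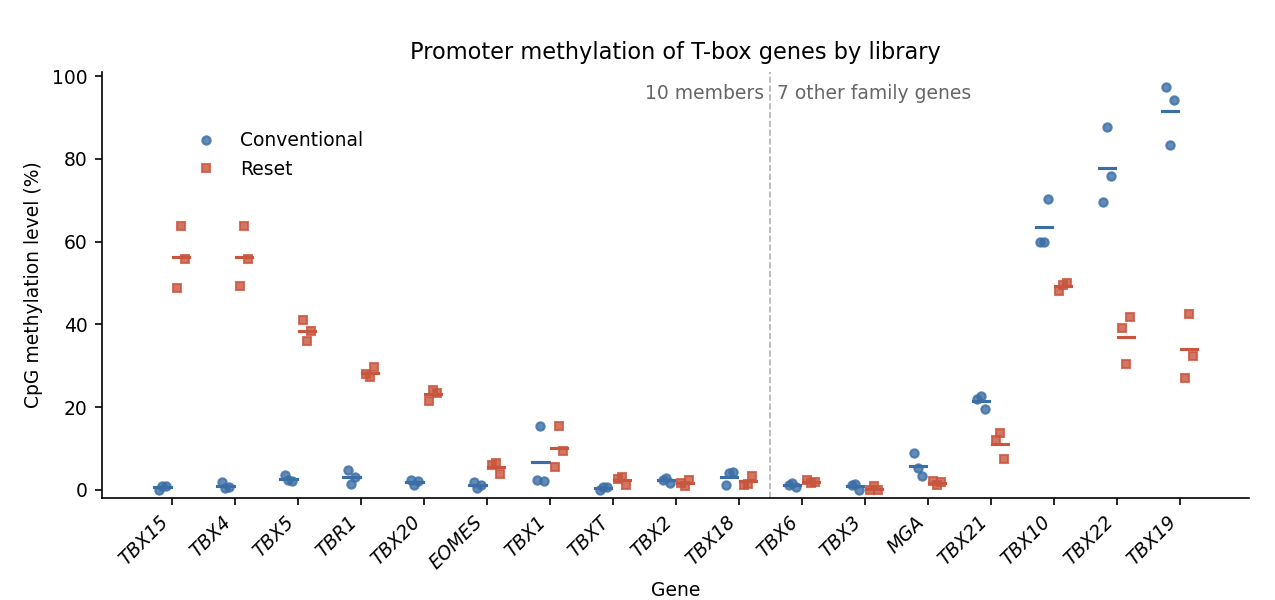
Promoter methylation level (y axis, %) of the 10 members and the 7 other T-box genes (x axis), with 1 point per library (circles Conventional, squares Reset) and a bar at the mean of 3 libraries. TBX15 and TBX4 stand near 56% in Reset and near 0 in Conventional, whereas TBX19, TBX22 and TBX10, which start high, are lower in Reset.

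The largest promoter gains were at TBX15, a factor of skeletal and dermal mesenchyme, and TBX4, a regulator of hindlimb and lung mesenchyme. The TBX15 promoter was at 0, 0.9 and 0.89% in Conventional and at 48.8, 63.8 and 55.8% in Reset libraries, a rise of 55.6 points (adjusted p = 1.537e-08, quasi-binomial model). The library at 0 held 228 calls there, which allows a level of up to 1.32%, and such limits cover counting error only. TBX4 was at 1.88, 0.44 and 0.54% against 49.2, 63.8 and 55.7%, a rise of 55.3 points (adjusted p = 1.475e-08, quasi-binomial model). The groups did not overlap at either gene, and their Reset levels were at percentiles 99 and 99.1 of all tested promoters.

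TBX5, which directs forelimb and heart development, was at 3.47, 2.27 and 2.07% in Conventional and 41.0, 36.0 and 38.4% in Reset libraries, a rise of 35.8 points (adjusted p = 3.958e-07, quasi-binomial model). TBR1, a factor of early-born neurons of the cerebral cortex, was at 4.86, 1.48 and 3.08% against 28.1, 27.2 and 29.7% (adjusted p = 2.857e-06, quasi-binomial model). TBX20, a cardiac factor, was at 2.29, 1.08 and 2.01% against 21.6, 24.2 and 23.5% (adjusted p = 3.972e-07, quasi-binomial model). At each of these genes the Reset libraries lay within 6 points of each other and far above every Conventional library. With these bounds the order of the means was TBX4 and TBX15, TBX5, TBR1, TBX20. TBX4 and TBX15 lay within their spread of each other, and the library ranges of the other neighbours did not overlap. From 2000 bp upstream to 1000 bp downstream TBX20 rose by more than TBR1, by 25.5 against 21.1 points.

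EOMES and TBXT, which act in the primitive streak and early mesendoderm, rose by little. EOMES was at 1.94, 0.52 and 1.21% in Conventional and 5.98, 6.45 and 3.76% in Reset libraries, a rise of 4.17 points (adjusted p = 0.008815, quasi-binomial model). TBXT, the Brachyury gene, was at 0, 0.75 and 0.68% against 2.51, 3.19 and 1.05%, a rise of 1.77 points (adjusted p = 0.03333, quasi-binomial model). Both calls depended on the bounds of the promoter. From 500 bp upstream to 500 bp downstream the change was 0.66 points at EOMES and 0.05 at TBXT, with adjusted p of 0.5865 and 0.9289 from the same model. From 2000 bp upstream to 1000 bp downstream it was 2.56 at EOMES and 15.6 at TBXT. The call at TBXT was also lost when any of 4 libraries (Conventional replicates 1 and 3, Reset replicates 1 and 2) was left out, with adjusted p of 0.05014 to 0.1027.

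The 3 promoters that did not pass were those of TBX1, TBX2 and TBX18. TBX2, expressed in heart, limb and eye, was at 2.44, 2.9 and 1.54% against 1.62, 0.88 and 2.31%. TBX18, a factor of the sinus node, epicardium and somites, was at 1.12, 4.11 and 4.29% against 1.25, 1.45 and 3.41%. The groups overlapped at both. TBX1, the pharyngeal arch gene of the 22q11 deletion region, was at 2.36, 15.4 and 2.07% against 5.56, 15.4 and 9.41%.

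A single library decided the call at TBX1 with these bounds. In Conventional replicate 2 the first 500 bp after the start were at 28.0% of 82 calls, where the other Conventional libraries had 0% of 118 and 93 calls and Reset libraries 1.56 to 2.2%. All 23 methylated calls lay on 23 CpGs within 183 bp, where no CpG had more than 2 calls. Without this library the promoter rose by 7.90 points (adjusted p = 0.005771, quasi-binomial model), and the promoter from 2000 bp upstream to 1000 bp downstream rose by 18.4 points with all 6 libraries (adjusted p = 2.259e-06). From 500 bp upstream to 500 bp downstream the change at TBX1 was -5.91 points with all 6 libraries (adjusted p = 0.5053, same model). TBX18 likewise rose by 10.7 points over the wider promoter (adjusted p = 8.543e-05).

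The tiles showed where along the start the methylation lay, and the members differed in this. In the tile that begins at the start, 4 members (TBX4, TBX5, TBX15 and TBR1) were at 27.6 to 58.1% in Reset cells, and the other 6 were at 0 to 1.99%. No member lay between 1.99 and 27.6%. The 4 tiles with the gain hold 15 to 45 CpGs and the other 6 hold 39 to 83. With 10 genes this is a description of these starts.

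**Figure D2:**
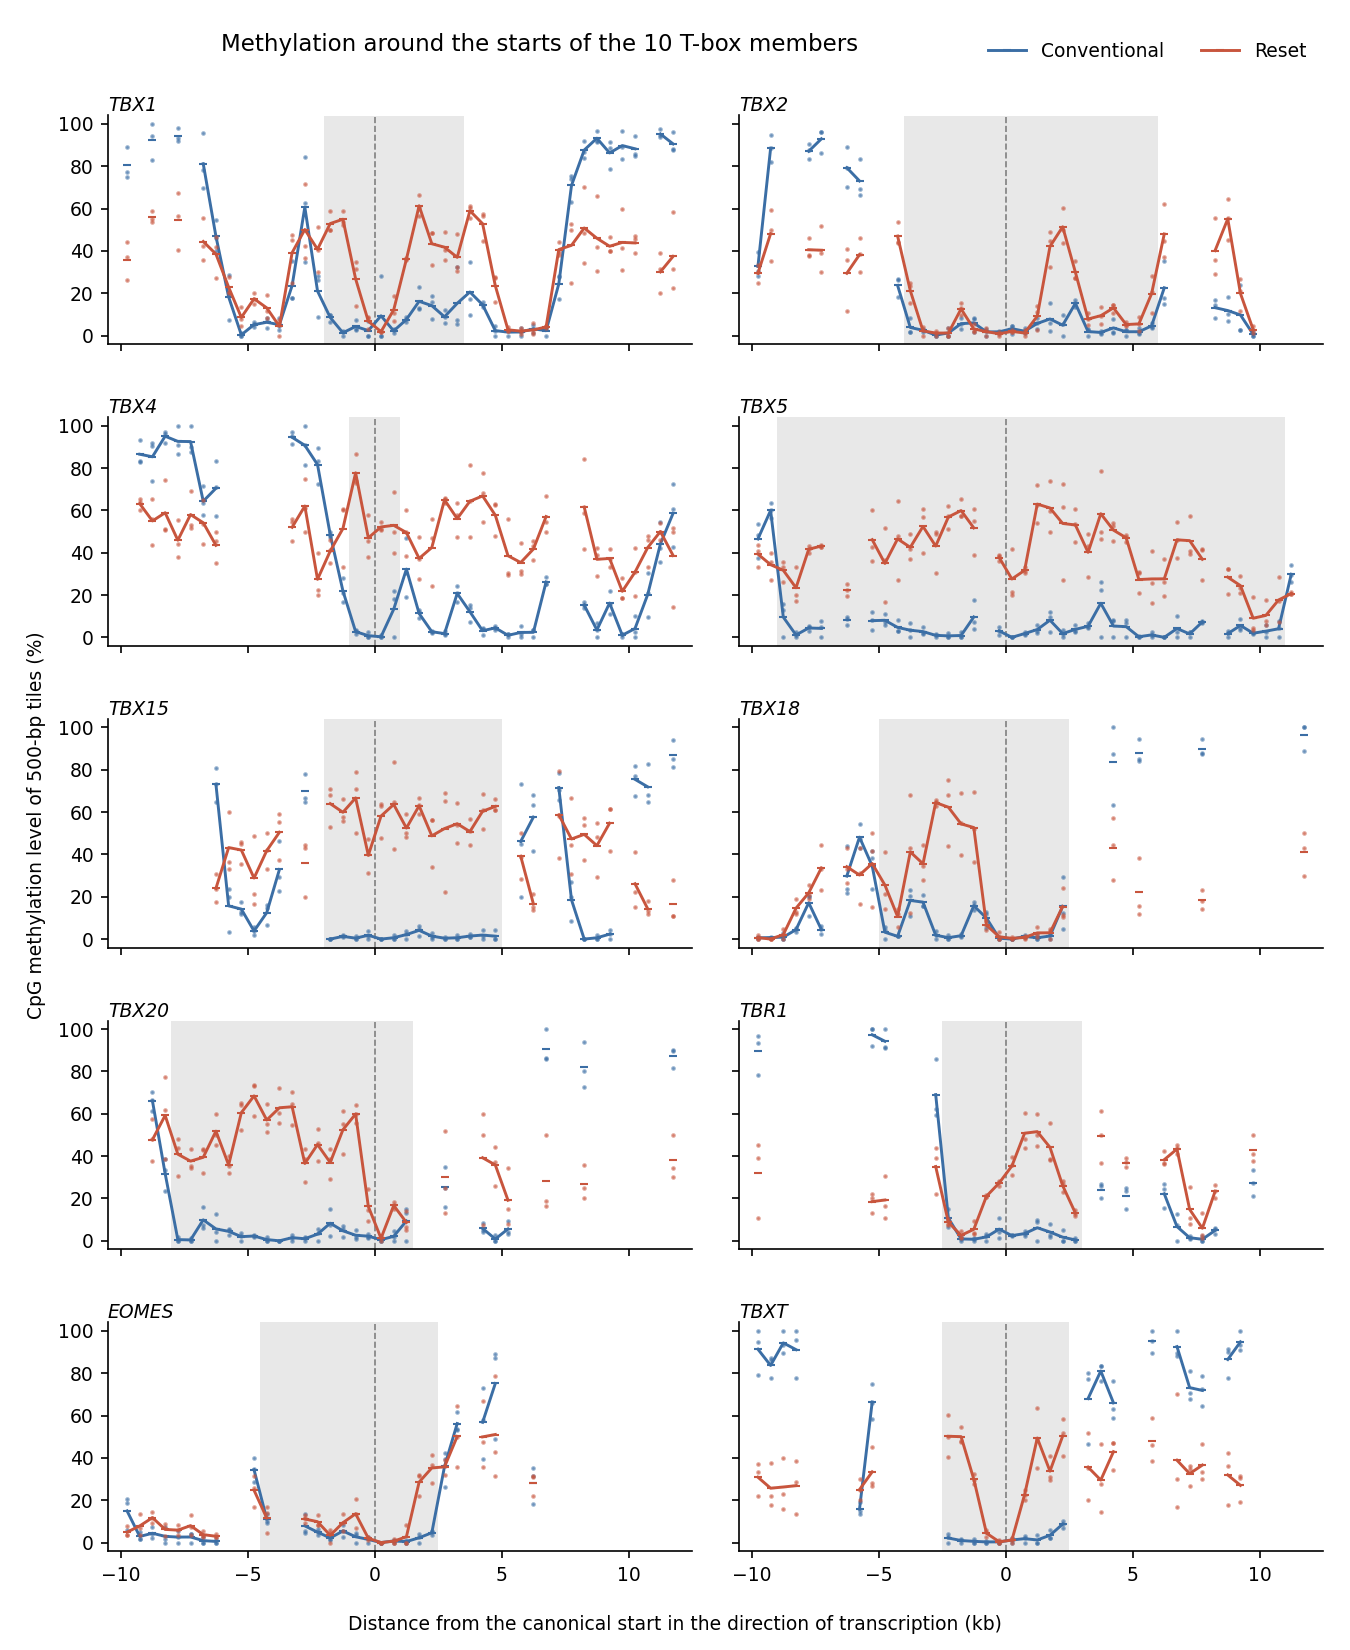
CpG methylation level (y axis, %) of tested 500-bp tiles by distance from the canonical start in kb (x axis) for each member, with lines through the means of 3 libraries, points for single libraries and gaps where a tile was not tested. Grey bands mark the low stretch in Conventional cells, and in TBX1, TBX2, TBX18, TBX20, EOMES and TBXT the Reset line dips to near 0 at the start inside that band.

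At TBX15 the start tile was at 0% of all 257 Conventional calls, which allows up to 1.17%, and at 63.6, 47.7 and 63.0% in Reset libraries. TBX4 went from 0.88, 0 and 0% to 51.0, 54.5 and 50.9%. TBR1 went from 2.08, 2.56 and 2.7% to 35.7, 31.0 and 39.4%. TBX5 was at 0% of 138 Conventional calls, which allows up to 2.17%, and at 41.5, 21.2 and 20.0% in Reset libraries. At these starts every Reset library was above every Conventional library.

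EOMES was the opposite case, with no methylated call in its start tile in any library. That is 0 of 217 Conventional calls, which allows up to 1.38%, and 0 of 119 Reset calls, which allows up to 2.52%. TBX18 was at 0% of 228 Conventional calls (up to 1.32%) and at 0, 0 and 1.02% in Reset libraries. TBXT was at 0, 1.33 and 2.27% against 1.19, 2.27 and 0%, and TBX20 at 1.52, 0 and 0% against 2.17, 0 and 1.33%. TBX2 was at 4.35, 4.55 and 0.94% against 1.59, 1.52 and 2.87%. These tiles held 25 to 209 calls per library.

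Around each start, Conventional cells had an unbroken run of tested tiles under 20%, called the low stretch here. It spanned 2.0 kb at TBX4, 5.0 to 7.5 kb at TBXT, TBX1, TBR1, EOMES, TBX15 and TBX18, 9.5 kb at TBX20, 10.0 kb at TBX2 and 20.0 kb at TBX5. The tested tiles cover protein-coding genes and 10 kb upstream of each, and DNA shared by neighbouring genes counts for each gene. Of all such tiles under 20% in Conventional cells 16.6% rose, and of those outside the members 15.3% fell. No tile within a member's low stretch fell, and the share that rose differed widely between the genes.

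**Figure D3:**
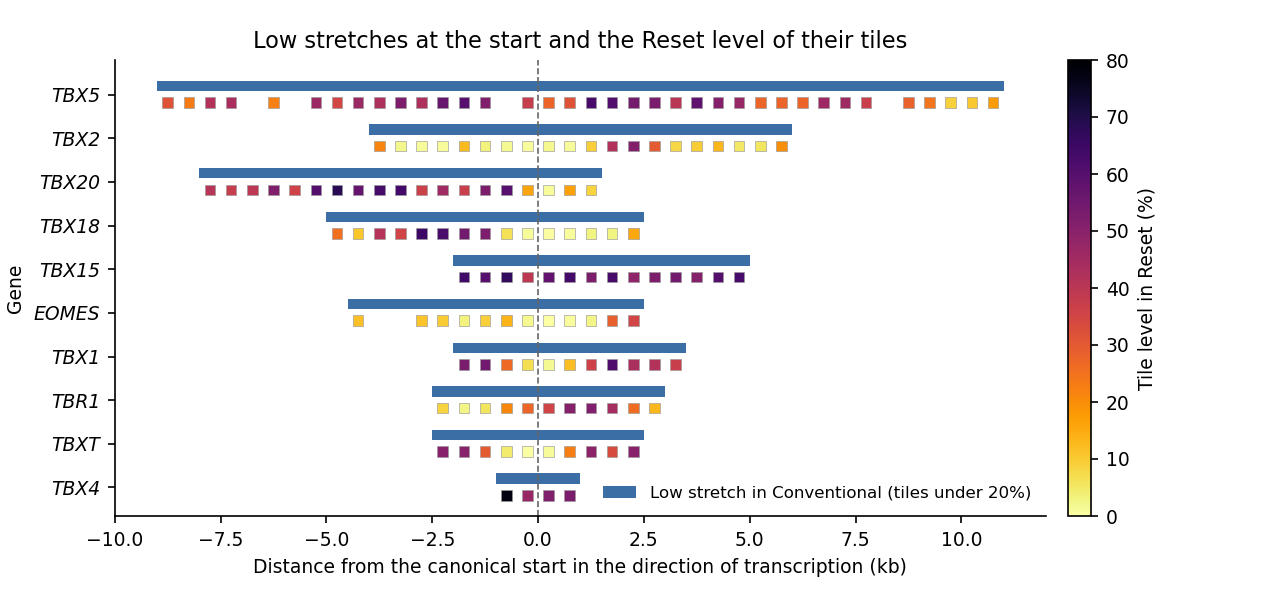
Low stretch of each member in Conventional cells (blue bar) along the distance from the canonical start in kb (x axis), with the Reset level of each tested tile (squares, colour scale in %). The row of TBX5 is coloured along its whole length, and the row of TBX2 stays pale from 1.5 kb upstream to 1.5 kb downstream.

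The whole stretch rose at TBX5. The gene lies at chr12:114791716-114846247 on the minus strand, with the long non-coding RNA TBX5-AS1 on the other strand. Long non-coding RNAs on the opposite strand also overlap the windows of other members, among them TBX2, TBX18 and TBXT. All 36 tested tiles of the 20.0-kb stretch of TBX5, from 9 kb upstream to 11 kb downstream of the start, passed upward, in runs of 4, 9, 17 and 5 neighbouring tiles and 1 lone tile, separated by untested ones. The mean of these tiles was 3.97, 4.70 and 3.90% in Conventional and 39.8, 37.9 and 40.7% in Reset libraries. The largest rise at TBX5 was 1.0 to 1.5 kb downstream of the start, within an intron (chr12:114842450-114842949), from 3.7% ± 2.06 to 63.0% ± 9.0 (SD, n = 3). The alternative starts of TBX5 shared the gain. Around the start of TBX5-202, 2.24 kb upstream, the level was 1.03% ± 1.44 against 54.1% ± 3.03, and around TBX5-204, 2.25 kb downstream, 4.86% ± 1.26 against 60.9% ± 2.36 (SD, n = 3).

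TBX4 (chr17:59529765-59562471, plus strand) had a short low stretch of 4 tested tiles, all of which rose, followed by further low DNA within the gene. Runs of neighbouring tiles that rose extended from 1.5 kb upstream to 1.0 kb downstream, from 1.5 to 7.0 kb and from 8.0 to 11.0 kb downstream. In the 11 tiles of the middle run the mean was 8.77, 6.85 and 8.38% in Conventional and 49.8, 51.6 and 52.0% in Reset libraries. The run holds the start of TBX4-201, 4.02 kb downstream, which was at 8.72% ± 2.93 against 62.9% ± 10.3 (SD, n = 3). The largest rise of any member tile was at TBX4, 1.0 to 0.5 kb upstream of the start (chr17:59528783-59529282), with 2.99, 1.41 and 3.7% in Conventional and 72.7, 86.8 and 73.7% in Reset libraries (adjusted p = 1.404e-07, quasi-binomial model). That level is far above the Reset level over all calls.

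TBX15 (chr1:119425669-119532179, minus strand) rose over all 14 tiles of its 7.0-kb stretch, from 2 kb upstream to 5 kb downstream. The tile mean was 1.17, 1.26 and 1.32% in Conventional and 50.8, 61.5 and 58.4% in Reset libraries. No tile of this stretch was under 39.6% in Reset cells. Both of its 5′ starts were included, since TBX15-201, 1.21 kb upstream, went from 1.56% ± 0.62 to 62.2% ± 6.72 (SD, n = 3). Runs of 4 tiles each that rose lay outside the stretch on both sides, from 6.0 to 4.0 kb upstream at 11.5% in Conventional and 39.0% in Reset cells, and from 7.5 to 9.5 kb downstream at 5.37 and 48.9%. The start of TBX15-203, 74.2 kb downstream, holds 7 CpGs and showed the reverse, at 93.2% ± 5.66 against 12.8% ± 1.88 (SD, n = 3).

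TBX18 (chr6:85397069-85474316, minus strand), which is closely related to TBX15, gained on the upstream side of its start. Of the 15 tested tiles of its stretch 8 rose, and those 8 form a run from 5.0 to 1.0 kb upstream with means of 8.48, 7.49 and 6.56% in Conventional and 35.9, 42.3 and 51.9% in Reset libraries. From 1.0 kb upstream to 2.0 kb downstream, 6 tiles with 212 CpGs stayed under 10% in Reset cells, with means of 2.26% in Conventional and 2.44% in Reset cells. The largest rise was 3.0 to 2.5 kb upstream (chr6:85476817-85477316), where 0, 3.66 and 1.8% in Conventional stood against 63.1, 64.6 and 65.8% in Reset libraries (adjusted p = 6.428e-08, quasi-binomial model).

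At TBX20 (chr7:35242042-35293711, minus strand) the gain was also upstream but came up to the start. Neighbouring tiles rose in an unbroken run of 17, from 8.5 kb upstream to the start itself, with means of 5.54, 4.25 and 4.5% in Conventional and 50.4, 48.8 and 46.3% in Reset libraries. The tile from 5.0 to 4.5 kb upstream (chr7:35298212-35298711) had the largest rise, from 2.86, 2.33 and 1.59% to 72.9, 73.7 and 58.8% (adjusted p = 1.301e-07, quasi-binomial model). A further run of 3 tiles, 4.0 to 5.5 kb downstream, rose from 4.09 to 31.4%. Within the promoter the level fell away toward the start, from 59.9% in the tile 1.0 to 0.5 kb upstream through 16.2% in the next to 1.17% in the tile after the start. The promoter change of TBX20 was 8.34 points within 500 bp of the start and 25.5 points over the wider promoter.

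TBX2 (chr17:59477204-59486827, plus strand) kept the longest low core of the members together with TBX18, 3.0 kb with 293 CpGs from 1.5 kb upstream to 1.5 kb downstream. A core is the unbroken run of tested tiles under 10% in Reset cells that holds or adjoins the start. Little change within it follows in part from this rule. The 6 tiles of the TBX2 core had means of 3.45% in Conventional and 3.06% in Reset cells, and none passed the test. Of the 20 tiles of its 10.0-kb stretch 8 rose. The largest rise was within the gene, 2.0 to 2.5 kb downstream, in a tile that overlaps an exon (chr17:59479204-59479703), at 0, 5.26 and 9.52% in Conventional and 50, 60.5 and 43.8% in Reset libraries (adjusted p = 1.501e-05, quasi-binomial model). Its single run of 3 tiles, 3.0 to 4.5 kb downstream, rose by little, with means of 2.36% in Conventional and 10.1% in Reset cells. TBX2 and TBX4 both lie on chromosome 17 and had coverage ratios of 1.09 each, and 1 promoter rose while the other did not pass.

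TBX1 (chr22:19744226-19771116, plus strand) had gains on both sides of its start. Tiles rose in runs from 2.5 to 0.5 kb upstream, with means of 11.2, 4.59 and 10.7% against 41.4, 41.4 and 48.8%, and from 0.5 to 5.0 kb downstream, with 10.3, 11.5 and 12.1% against 37.7, 41.4 and 43.3%. The 1.0 kb between these runs had a Reset mean of 4.33%. Further into the gene, 4 tiles from 5.0 to 7.0 kb downstream did not pass the test, with Reset levels of 2.14 to 4.07%. An alternative start, TBX1-202, 4.08 kb upstream, was at 5.29% ± 1.37 against 10.5% ± 1.95, and TBX1-207, 2.0 kb upstream, at 21.1% ± 5.32 against 47.1% ± 3.89 (SD, n = 3). The largest rise was 1.5 to 1.0 kb upstream (chr22:19746801-19747300), from 1.33% ± 1.17 to 55.0% ± 3.42 (SD, n = 3). GNB1L, on the opposite strand, overlaps the window examined here.

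TBR1 (chr2:162272808-162282381, plus strand) and EOMES (chr3:27757440-27764202, minus strand) belong to the T-brain subfamily. At TBR1 9 of the 11 tiles of the stretch rose, in a run from 1.5 kb upstream to 3.0 kb downstream with means of 3.3, 1.99 and 3.49% in Conventional and 30.6, 32.4 and 28.7% in Reset libraries. Its largest rise was in the tile from 0.5 to 1.0 kb downstream (chr2:162273308-162273807), at 3.23, 2.15 and 4.82% against 48.1, 60.3 and 44.1% (adjusted p = 3.294e-07, quasi-binomial model). TBR1-203, which starts 1.48 kb downstream, went from 4.14% ± 1.37 to 48.5% ± 6.85 (SD, n = 3). In a second run, 6.0 to 8.5 kb downstream, all 5 tiles rose and the means were 8.67, 8.97 and 3.96% against 23.1, 23.5 and 28.8%.

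EOMES had the fewest tiles that rose, 3 of 12 in its stretch, and is the single member without a run of 3 or more. From 0.5 kb upstream to 1.5 kb downstream its 4 tiles, with 156 CpGs, had means of 0.66% in Conventional and 1.35% in Reset cells. The largest rise was from 2.0 to 2.5 kb downstream (chr3:27761315-27761814), at 3.57, 4.92 and 5.36% against 36.7, 41.2 and 27.9% (adjusted p = 3.083e-05, quasi-binomial model). The single low tile of any member that fell was also at EOMES, 10.0 to 9.5 kb upstream, from 14.9% ± 7.9 to 4.91% ± 2.42 (SD, n = 3), where the groups overlapped (adjusted p = 0.0286, quasi-binomial model).

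TBXT (chr6:166571144-166582188, minus strand) had a nearly symmetric pattern. The tiles from 2.5 to 0.5 kb upstream rose to means of 35.6, 33.3 and 32% from 1.07, 1.46 and 0.43%, and those from 0.5 to 2.5 kb downstream rose to 36.5, 40.4 and 40.2% from 3.57, 3.23 and 4.59%. Between 1.0 kb upstream and 0.5 kb downstream, 3 tiles with 143 CpGs had a Reset mean of 1.98%. Of these 3 tiles 1 passed the test upward. The largest rise was from 2.0 to 1.5 kb upstream (chr6:166582840-166583339), at 1.69, 1.16 and 0% against 47.5, 54.5 and 48.0% (adjusted p = 3.283e-07, quasi-binomial model).

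Member tiles were also grouped by their level in Conventional cells. Of the 464 tested member tiles (of 982, the others having fewer than 10 calls in some library), 209 fell and 172 rose, where 94.1% of all 1352975 tested tiles fell and 0.952% rose. The balance between the directions depended on the minimum of calls, since 410 fell and 183 rose with a minimum of 5 calls and 50 fell and 125 rose with a minimum of 20. All 165 member tiles at 80% or more in Conventional cells fell, as did 99.9% of all such tested tiles. The medians of these member tiles were 91.8% in Conventional and 31.9% in Reset cells, against 93.3 and 37% over all such tested tiles. Of the 213 member tiles under 20%, 157 rose and 1 fell, and the median went from 2.66 to 33.7%. Of all such tested tiles 16.6% rose, and of those outside the members 15.3% fell. Between 20 and 80%, 43 of 86 member tiles fell (50%) and 15 rose (17.4%), beside 88.8 and 0.49% of the other tested tiles in that class. In 158 of the 172 tiles that rose the rise was 10 points or more, and in 161 the groups did not overlap. Of the 12883 tiles that rose in all, 8960 rose by 10 points or more and in 10594 the groups did not overlap.

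**Figure D4:**
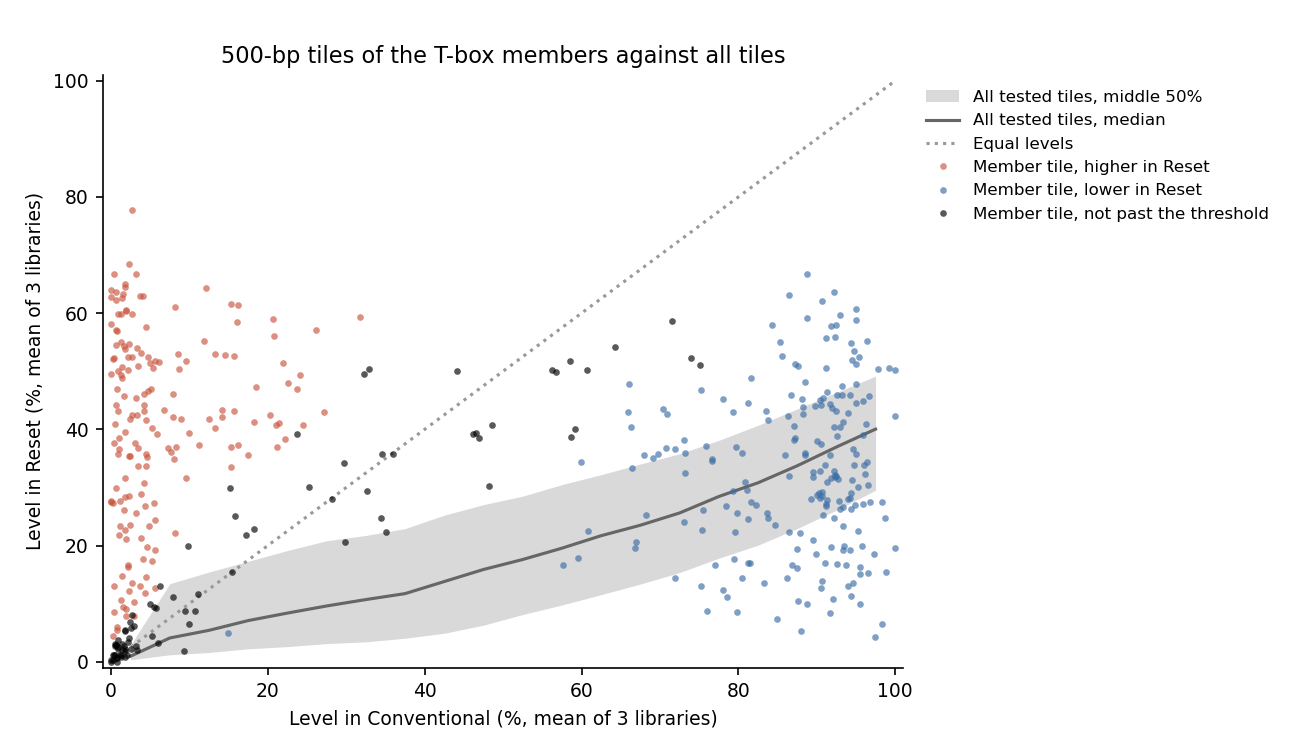
Mean level of each tested 500-bp member tile in Conventional (x axis, %) and Reset cells (y axis, %), coloured by the test, with the median and middle 50% of all tested tiles in bins of 5 percentage points (grey line and band). Member tiles under 5% in Conventional spread up to 77.7% in Reset, where the median of all such tiles is 0.95%, and member tiles over 80% lie in and around the grey band.

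Pooled over the members, low and high tiles had similar medians in Reset cells, 33.7 and 31.9%. Over all tested tiles the medians of the same classes were 1.44 and 37%. Single members differed. Low tiles had the higher Reset median at TBX15 (52.3 against 15.2%), TBX5 (42.1 against 28.1%) and TBX20 (39.3 against 28.5%). They had the lower at TBX2 (8.52 against 40.6%), TBX1 (20.1 against 44.2%), TBX18 (14.6 against 28.1%) and TBX4 (44.7 against 51.25%). TBR1 (23.3 against 19.3%) and TBXT (29.9 against 29.5%) differed less. EOMES had no tested high tile, and TBX2 and TBR1 had 3 each. The pooled spread of member tile levels narrowed, from quartiles of 3.18 and 89.4% in Conventional to 19.3 and 46.1% in Reset cells. All tested tiles had quartiles of 21.5 and 45.1% in Reset cells. Only 25 member tiles, or 5.39%, were above 60% in Reset cells, against 3.66% of all tiles.

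CpG density was compared within the low tiles. The share of member tiles that rose was 78.6% of 28 tiles with under 10 CpGs, 83.3% of 54 with 10 to 19, 88.2% of 51 with 20 to 29 and 56.2% of 80 with 30 or more. Among all tested low tiles the shares in the same order were 19.4, 22.4, 19.3 and 12.9%. The densest tiles of the members had the lowest median Reset level, 10.7%, and those with 20 to 29 CpGs the highest, 44.1%.

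By distance, 16 of 29 member tiles from 1 kb upstream to 0.5 kb downstream rose and 0 fell, where 5.47% of all tested tiles in that zone rose and 43.5% fell. From 1 to 5 kb upstream 40 of 64 rose and 6 fell (2.11 and 91.1% of all), and from 0.5 to 5 kb downstream 56 of 77 rose and 4 fell (3.36 and 84.8% of all). More than 5 kb upstream 22 of 74 rose and 34 fell (1.15 and 94.1% of all). More than 5 kb downstream, where most of the long genes lie, 38 of 220 rose and 165 fell (0.315 and 98% of all). From upstream to downstream, 33 of 74, 50 of 64, 29 of 29, 63 of 77 and 38 of 220 member tiles lay under 20% in Conventional cells. The shares over all tiles of a zone take in every starting level, so distance and starting level are not separated here.

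Compared by the single tile with the largest fall in each member, losses were deepest inside the long genes TBX15, TBX18, TBX5 and TBX20. These tiles were picked for their fall and hold few CpGs, 9 at TBX15, 4 at TBX18, 6 at TBX5 and 6 at TBX20. The tile from 57.5 to 58.0 kb downstream in TBX15, an intron (chr1:119472967-119473466), was at 92.2, 100 and 100% in Conventional and 0, 10 and 2.63% in Reset libraries, over 10 to 51 calls (adjusted p = 3.53e-07, quasi-binomial model). In TBX18 the intronic tile 69.0 to 69.5 kb downstream went from 98.3% ± 2.89 to 6.53% ± 6.67, and in TBX5 the intronic tile 42.5 to 43.0 kb downstream from 92.0% ± 6.51 to 10.7% ± 4.65 (SD, n = 3). In TBX20 the intronic tile 27.0 to 27.5 kb downstream went from 94.0% ± 5.27 to 12.9% ± 6.2 (SD, n = 3). TBX5, TBX15 and TBX18 thus held, within 1 locus each, tiles that rose by 59.3 to 66.3 points and tiles that fell by 81.3 to 93.2. The largest falls in the other members were smaller and ended higher. They were 78.8 points at TBR1 and 68.1 at TBXT, both upstream of the gene, 66.0 in an intron of TBX4, 65.4 in TBX1, and 52.6 at TBX2 and 47.2 at EOMES, both upstream. In each of these tiles the 3 Reset libraries lay under the 3 Conventional ones, which follows in part from picking the largest fall. Of the 1273157 tiles that fell in all, the groups did not overlap in 1258888. The TBR1 tile holds 2 CpGs with 10 to 25 calls per library. Other protein-coding genes overlap the windows examined here, PSMD14 and SLC4A10 at TBR1 and BCAS3 at TBX2.

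Averaged over the body, 6 members fell, 2 rose and 2 did not pass the test, where 97.8% of 19182 tested bodies fell and 1.11% rose. The rises were in the short genes TBX2, at 7.03, 5.85 and 4.59% in Conventional and 22.8, 17.8 and 15.8% in Reset libraries (adjusted p = 1.437e-09, quasi-binomial model), and TBR1, at 8.51, 7.64 and 6.8% against 23.1, 25.4 and 29.7% (adjusted p = 4.298e-11, quasi-binomial model). Both bodies lay under 10% in Conventional cells, and of all 445 tested bodies under 20% there, 44% rose. The bodies of TBX4, at 45.1% ± 0.32 against 46.5% ± 1.99, and EOMES, at 23.4% ± 3.07 against 25.3% ± 3.7 (SD, n = 3), did not pass. Over the whole annotated gene, the first 500 bp included, TBX4 rose by 3.64 points (adjusted p = 0.01602, quasi-binomial model). Over the whole locus of TBX4, the tiles upstream of the gene included, 23 tiles rose and 36 fell.

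TBX18 had the largest fall of a member body, 54.8 points, from 77.1% ± 1.17 to 22.2% ± 0.77 (SD, n = 3), beside a promoter that did not pass the test. The median change was -51.2 points over all tested bodies and -13.9 over the members. The fall at TBX18 was thus near that of a typical body, and the other member bodies that fell did so by less. The body of TBX20 fell by 40.7 points and that of TBX15 by 33.4, although both promoters rose. TBX5, TBXT and TBX1 fell by 15.9, 13.9 and 13.9 points. Promoter and body thus moved in opposite directions at TBX5, TBX15 and TBX20, and both rose at TBR1. At TBXT the body fell beside the small promoter rise whose call depended on the bounds and on single libraries.

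**Figure D5:**
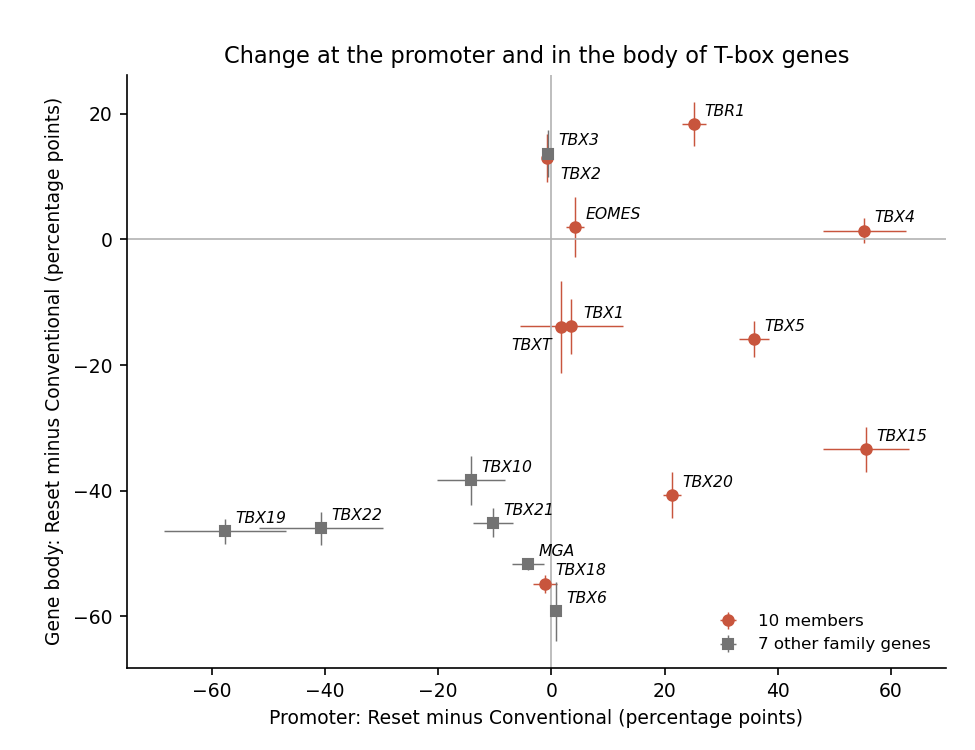
Difference between Reset and Conventional in percentage points at the promoter (x axis) and in the body (y axis) for the 10 members (circles) and 7 other T-box genes (squares), with bars for the combined SD of 3 and 3 libraries. TBX15, TBX5 and TBX20 lie at the lower right (promoter higher, body lower), TBR1 at the upper right, and TBX19 and TBX22 at the lower left.

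The other 7 T-box genes (TBX3, TBX6, TBX10, TBX19, TBX21, TBX22 and MGA) were read in the same way. Of their promoters 5 fell, 0 rose and 2 did not pass, beside the 67.4% of all tested promoters that fell and the 3.98% that rose. TBX10, TBX19, TBX21 and TBX22 lay above 20% in Conventional cells, unlike every member, so the falls of the 2 lists start from different levels. TBX19, a pituitary factor, fell from 91.6% ± 7.39 to 33.9% ± 7.82, and TBX22, a palate gene on the X chromosome, from 77.7% ± 9.26 to 37% ± 5.87 (SD, n = 3 each). TBX10 fell by 14.2 points, TBX21, the T-bet gene of T helper cells, by 10.3 and MGA, a MAX partner, by 4.11. The call at TBX10 was lost in 5 of 14 alternatives. Its change was -8.53 points from 500 bp upstream to 500 bp downstream (adjusted p = 0.3349, quasi-binomial model), -10.8 without Conventional replicate 3, -13.7 without Reset replicate 1 and -14.4 without Reset replicate 2 (adjusted p of 0.05594 to 0.07584), and limma gave an adjusted p of 0.09878. From 2000 bp upstream to 1000 bp downstream TBX10 fell by 26.2 points. TBX21 and MGA lost their calls from 500 bp upstream to 500 bp downstream, with changes of -2.48 and 0.01 points and adjusted p of 0.4886 and 0.8725 (quasi-binomial model). TBX3 was at 0.84% ± 0.74 against 0.27% ± 0.46, and TBX6, a presomitic mesoderm factor, at 1.18% ± 0.46 against 1.97% ± 0.4 (SD, n = 3). Neither passed the test with these bounds. From 2000 bp upstream to 1000 bp downstream TBX3 rose by 2.19 points (adjusted p = 0.019) and TBX6 fell by 12 (adjusted p = 0.0002502, quasi-binomial model).

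TBX3 resembled TBX2, the member to which it is most closely related. Its body rose from 7.93% ± 0.58 to 21.6% ± 3.71 (SD, n = 3), with an adjusted p of 1.141e-09 from the quasi-binomial model, beside a promoter that did not pass, and at TBX2 the body rose from 5.82% ± 1.22 to 18.8% ± 3.62. The bodies of the other 6 genes fell by 38.4 to 59.2 points, beside a median change of -51.2 over all tested bodies. TBX5 and TBX3 both lie on chromosome 12, and the promoter of TBX5 rose by 35.8 points while that of TBX3 did not pass.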

How the data were processed

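Whole genome bisulfite sequencing of H9 cells gave 3 Conventional and 3 Reset libraries. Per the labels, DNA was sonicated, ligated to methylated adaptors, bisulfite-treated and amplified. Reads were trimmed by the authors (Trim Galore) and aligned to GRCh37 (Bismark). The submitters' processing notes name Bismark 0.9.0 and Bowtie2, and the methods of the study name another version of Bismark. Duplicate removal is not given in the sources used here. Methylated and unmethylated calls per CpG cytosine are deposited as counts, not normalized, with the percent of methylated calls beside them, which was not used. Positions counted from 0 lay at a GRCh37 CpG in 99.8% of cases, and printed coordinates count from 1.

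Calls on both strands of a CpG were summed, and levels computed over features. Genes and canonical starts came from GENCODE 44 lifted to GRCh37. Tests took the features whose 6 libraries each had 10 calls or more and used quasi-binomial logistic regression (R 4.3.3), with dispersions squeezed by limma 3.58.1 and kept at 1 or more, a likelihood-ratio F test across all features of a kind, and Benjamini-Hochberg adjustment at 0.05. Fits were tested on simulated data in which few features changed and no starting level was as low as in most member promoters. That test therefore does not cover the gains from such low levels. With 3 against 3 libraries an exact permutation test cannot go below 0.1, so none was run. Each member and the other family genes were named, with, per member, the tile of the largest rise and of the largest fall and runs of 3 or more tiles that rose. The members, lists and rules were chosen with earlier results of these data known. Alternatives were other minima of calls, limma on log2 call ratios, no lower limit of the dispersion, other bounds, deep CpGs left out, single libraries left out and a replicate block. Low stretches and cores describe levels and were not tested.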

Additional observations from a re-analysis of the deposited data

How the results depend on the processing

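Over the alternatives the number of member promoters that rose ran from 5 to 9 of 10 and the number that fell stayed at 0. Leaving out single libraries gave 6 to 8 promoters, 165 to 169 tiles and 151 to 158 low tiles that rose, 209 to 245 tiles that fell, and 4 to 5 of the other family promoters that fell. Of 688 tiles tested with a minimum of 5 calls 410 fell and 183 rose, and of 232 with a minimum of 20 calls 50 fell and 125 rose, since the minimum sets how many CpG-poor tiles are tested. In tiles of 1000 bp, of which fewer exist, 252 fell and 103 rose, 98 of them low. Promoters within 500 bp of the start left 1 of the 6 other family promoters tested lower (TBX22 was not tested there), and MGA changed by 0.01 points there. From 2000 bp upstream to 1000 bp downstream 1 of them rose, TBX3 by 2.19 points, TBX6 changed by -12.0 and TBX18 by 10.7 points, each opposite to its sign in the report. The cause was not tested. The mean of single-CpG percentages gave a median body change of -10.9 points over the members (main -13.9), and the whole annotated gene made the 3.64-point rise of TBX4 pass. With a replicate block 6 promoters, 157 tiles and 148 low tiles rose, and TBXT lost its call (adjusted p = 0.0556, quasi-binomial model). Same-numbered libraries shared only a number, with correlations of their deviations of 0.008 to 0.012 over promoters. The 20 tiles named for the largest rise or fall passed in the same direction under each alternative that tested them. They were picked from the same libraries for the size of their change, so this is no independent check. Because nearly all tiles fell, adjustment over all features is lenient for low ones. Adjusted over low tiles alone, an alternative chosen after seeing the data, 145 of 213 member tiles rose and 11.9% of all low tiles. Adjusted over low promoters alone, 7 of 10 member promoters rose and 6.03% of all. The median member tile had 35 (Conventional) and 29 (Reset) calls per library, which limits the precision of single tiles.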
